A study of Mus musculus with 10 samples.

Results

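The proteasome genes of mouse testis were followed across spermatogenesis, as RNA and as accessible chromatin in single nuclei. A gene counted as a member when its symbol had the form of a 20S core subunit (Psma, Psmb), of a regulatory particle subunit (Psmc, Psmd), or of an activator, inhibitor or assembly factor (Psme, Psmf, Psmg), followed by a number and at most 1 letter. This rule took 49 of the 28125 genes of the RNA matrix, and all 49 were also among the 30670 genes of the scATAC matrix. Of these, 31 are constitutive subunits of the 26S proteasome: 7 of the alpha ring, 7 of the beta ring, 6 ATPases and 11 non-ATPase subunits. The others are the testis alpha subunit Psma8, 4 immunoproteasome and thymoproteasome subunits, 3 chaperones of the regulatory particle, 5 activator genes, the inhibitor Psmf1 and 4 chaperones of the core.

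Testes were taken from C57BL/6J wild-type mice aged 11, 17 and 25 days postpartum (dpp), and at 8 weeks from Cre/+ controls and from Nfya-CKO males. In Nfya-CKO males, Nfya alleles flanked by loxP sites lose an internal part of the gene through Stra8-Cre, which acts in germ cells from the spermatogonial stage, and Cre/+ males carry the same Cre without the loss. Nuclei of whole testes gave both readouts together on the BD Rhapsody platform. Each condition has a single library per assay, so that no difference given here has a replicate check and no p-value was computed. Each value is a mean over all cells of 1 of 13 populations, pooled across libraries.

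The proteasome degrades proteins marked with ubiquitin. Its 20S core is a barrel of alpha rings, which gate the entry, around beta rings, which hold the peptidase sites, and the 19S particle binds, unfolds and feeds the substrate. In male germ cells Psma8 stands in for its relative Psma7 in the alpha ring, and Psme4 caps the core in the form called the spermatoproteasome, which is known for the removal of acetylated histones and of meiotic proteins.

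Spermatogonia that are still undifferentiated (undiff. SpG) came first in germ cell order, then those that differentiate (diff. SpG), followed by spermatocytes in preleptotene (pL), in early leptotene to zygotene (eL/L/Z), in leptotene to early pachytene (L/Z/eP), in middle and late pachytene (mP/lP) and in diplotene (D). Spermatids were round (RS) or elongating (ES). The others were the spermatogonia of the library labelled Nfya-CKO (SpG Nfya-CKO), Sertoli cells, other somatic cells, and 99 unknown cells. Libraries held 3746 to 18039 scRNA cells with 30227701 to 64967271 UMIs. Ages were unequally spread: 8-week-old mice gave 7.97% of undiff. SpG, 84.5% of diff. SpG, 0.341% of pL, 77.0% of RS, 99.6% of ES, 0.0613% of Sertoli and 84.5% of other somatic cells. Summed stage markers peaked where the names place them, save that those of differentiating spermatogonia were at 3.88 UMIs per 10000 in pL and 3.42 in diff. SpG. Prm1, an RNA of spermatids, was at 3.94 in diff. SpG against 0.155 in undiff. SpG. SpG Nfya-CKO held the Leydig cell gene Cyp17a1 at 7.39 and Clu, from the list of Sertoli markers, at 22.8. Clu was highest in other somatic cells, at 91.5 against 34.1 in Sertoli cells. Of the other Sertoli markers, Sox9 and Wt1 were at 0.82 and 0.7 in SpG Nfya-CKO against 0.531 and 0.6 in undiff. SpG. Amh was lower, at 0.0116 against 0.0431. Of the leukocyte markers, Ptprc was at 0.0375 or lower in every population. Cd74 was at 1.84 in other somatic cells, 0.752 in SpG Nfya-CKO and 0.717 in ES, and Csf1r at 0.184, 0.09 and 0.0342. In undiff. SpG, Cd74 and Csf1r were at 0.0289 and 0.0124. The unknown cells carried endothelial markers (14.4 in sum). Cell barcodes recurred between scRNA libraries: those of Cre/+ and Nfya-CKO shared 3813, which is 74.0% of the barcodes of the latter. The pooled matrices give no values without them. The scATAC libraries of Cre/+ and Nfya-CKO shared 92, or 0.617% of the barcodes of the latter. The targeted gene was checked first: Nfya RNA was 1.11 UMIs per 10000 in SpG Nfya-CKO against 0.456 in undiff. SpG, which goes against the label, while scATAC signal at Nfya was 58.7 against 83.1 per 1000000. The library labelled Nfya-CKO gave 0 cells in pL, L/Z/eP, mP/lP, RS and ES, where the Cre/+ library gave 5639 cells in RS and 1190 in ES. Which part of the Nfya transcript was counted is not stated, and RNA from outside the deleted part cannot be told apart from an intact transcript.

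Promoter sequences of the members were looked up because NFYA is a subunit of NF-Y, the factor that binds CCAAT boxes, and because proteasome genes are known targets of NFE2L1 through antioxidant response elements. RefSeq windows (GRCm38.p6) were at hand for 41 of the 49 members, with 44 windows of 250 bases before to 50 after a start. Those without an entry were Psma8, Psmb1, Psmb2, Psmb7, Psmc3, Psmd3, Psmd7 and Psmg2. Printed here are the 250 bases before the start for members described most closely in the results, chosen after their values were seen, 5′ to 3′ on the gene's strand, with matches to CCAAT (or its reverse complement ATTGG) and to the NRF1 motif in capitals. Psma6 has a distal window on the plus strand at chr12:55383972-55384221 and a proximal one, which begins inside the gene, at chr12:55398575-55398824. The windows of Psmf1 (chr2:151741311-151741560), Psma7 (chr2:180042465-180042714), Psmd5 (chr2:34870963-34871212), Psmc4 (chr7:28050093-28050342) and the X-linked Psmd10 (chrX:140956712-140956961) are on the minus strand.
Psma6, distal: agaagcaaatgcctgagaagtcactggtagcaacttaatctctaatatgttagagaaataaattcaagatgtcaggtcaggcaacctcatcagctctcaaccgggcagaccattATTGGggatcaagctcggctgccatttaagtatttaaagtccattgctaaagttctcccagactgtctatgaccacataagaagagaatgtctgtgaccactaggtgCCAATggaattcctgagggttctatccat
Psma6, proximal: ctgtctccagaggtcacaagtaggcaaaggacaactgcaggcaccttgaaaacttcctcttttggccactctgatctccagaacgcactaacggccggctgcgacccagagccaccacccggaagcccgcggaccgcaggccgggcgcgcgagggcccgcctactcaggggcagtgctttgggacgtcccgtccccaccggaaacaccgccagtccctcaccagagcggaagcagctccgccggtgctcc
Psmf1: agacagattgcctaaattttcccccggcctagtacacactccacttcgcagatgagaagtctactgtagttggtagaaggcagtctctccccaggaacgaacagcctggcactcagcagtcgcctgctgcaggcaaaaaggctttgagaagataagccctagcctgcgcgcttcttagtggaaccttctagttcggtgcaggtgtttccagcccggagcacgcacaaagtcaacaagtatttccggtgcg
Psma7: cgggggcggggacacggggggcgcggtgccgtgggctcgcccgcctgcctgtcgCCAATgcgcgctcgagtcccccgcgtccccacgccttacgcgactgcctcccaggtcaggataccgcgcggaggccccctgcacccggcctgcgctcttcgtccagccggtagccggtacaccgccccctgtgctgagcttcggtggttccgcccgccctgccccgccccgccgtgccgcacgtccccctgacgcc
Psmd5: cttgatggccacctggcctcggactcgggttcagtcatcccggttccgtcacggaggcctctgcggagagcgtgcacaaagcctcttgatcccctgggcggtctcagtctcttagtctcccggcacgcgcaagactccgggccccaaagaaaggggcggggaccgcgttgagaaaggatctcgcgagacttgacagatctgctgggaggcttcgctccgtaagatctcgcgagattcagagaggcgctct
Psmd10: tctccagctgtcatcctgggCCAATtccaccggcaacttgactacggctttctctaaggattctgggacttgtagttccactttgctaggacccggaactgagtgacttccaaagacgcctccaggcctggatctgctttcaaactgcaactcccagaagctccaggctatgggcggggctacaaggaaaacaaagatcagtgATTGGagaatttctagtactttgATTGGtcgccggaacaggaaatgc
Psmc4: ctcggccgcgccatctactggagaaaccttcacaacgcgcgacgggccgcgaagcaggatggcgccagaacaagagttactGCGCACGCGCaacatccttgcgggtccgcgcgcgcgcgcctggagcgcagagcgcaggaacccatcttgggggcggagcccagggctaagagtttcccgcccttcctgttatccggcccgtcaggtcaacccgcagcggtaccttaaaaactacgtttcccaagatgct

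The distal Psma6 window held 2 CCAAT matches, at -136 and -29 from the start, and none in the proximal one. Psmd10 held 3, at -230, -47 and -24, Psma7 held 1 at -196, and the windows of Psmf1 and Psmd5 held neither motif. Over all members 14 of 44 windows held CCAAT on either strand, which is 31.8% against 37.4% of all 32851 RefSeq promoter windows. The antioxidant response element, searched as TGACNNNGC, was in 6 windows (13.6% against 12.4%). The motif of nuclear respiratory factor 1, searched as GCGC, any base and then TGCGC, was in 7 windows (15.9% against 4.6%), those of Psma2, Psma3, Psma4, Psmc4, Psmc5, Psmd14 and Psmg1. CCAAT and TGACNNNGC were therefore found in the members about as often as elsewhere, and the NRF1 motif more often. The NRF1 motif is mostly G and C, and the windows of all genes were not matched to those of the members for GC content. A match is a run of letters and no evidence of binding.

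Proteasome RNA fell through meiosis to a low in round spermatids and rose again in elongating spermatids. Summed over the 31 constitutive subunits, it stood at 37.9 UMIs per 10000 in undiff. SpG, 39.3 in diff. SpG, 36.5 in pL, 30.4 in eL/L/Z and 26 in L/Z/eP. It then went up to 31.6 in mP/lP, down to 24.5 in D and 19.5 in RS, and back to 32 in ES. Sertoli cells were at 26.2 and other somatic cells at 35.2. Since each population sums to 10000, these are shares of a cell's RNA, and a lower share cannot be told apart from more RNA of other genes. RS was the lowest of the 9 germ cell populations for 33 of the 49 members, against 29.8% of all 15250 genes whose mean over the populations reached 0.05. By role this held for 6 of 7 alpha subunits, 7 of 7 beta subunits, 3 of 6 ATPases and 9 of 11 non-ATPase subunits.

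**Figure D1:**
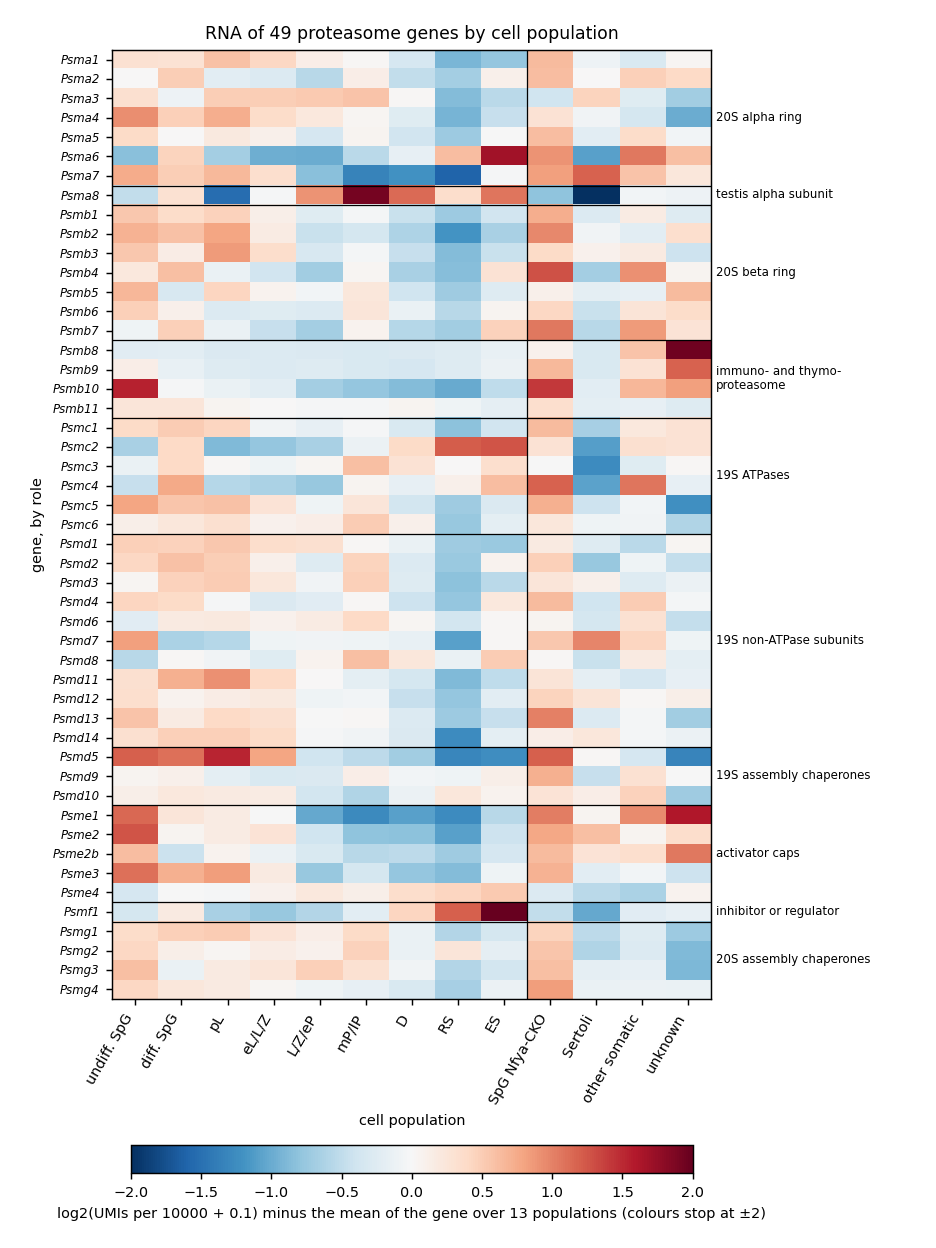
Rows are the 49 proteasome genes by role and columns the 13 populations, with the 9 germ cell populations left of the line. Colour gives log2(UMIs per 10000 + 0.1) minus the gene's mean over the populations: most rows are blue in RS, while Psma6, Psmc2 and Psmf1 are red there and in ES, and Psma8 is red from L/Z/eP on.

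Step by step, the fall was shared by most members and small per gene. Ratios were taken of values + 0.1, and of the 49 members, 46 passed the filter on low values, and Psmb8, Psmb9 and Psmb11 did not. In diff. SpG against undiff. SpG the median log2 ratio over the 46 was -0.04 beside 0.10 over all genes. Psma6, Psmc4 and Psmc2 were at least 2-fold higher in diff. SpG (all genes 9.57%), and Psmb10, Psmd7, Psme2 and Psme2b at least 2-fold lower (all genes 6.28%). Into pL the median was 0.03 beside -0.03. No member was 2-fold higher in pL (all genes 1.27%) and Psma8, Psmc4, Psmc2 and Psma6 were 2-fold lower (all genes 10.9%), so that 3 genes which were higher in diff. SpG were lower again in pL. With a pseudocount of 1, which weighs low values less, none of these calls in either step stayed 2-fold apart. Prm1 moved with these genes, at 0.155 in undiff. SpG, 3.94 in diff. SpG and 0.00525 in pL, and 49.1% of diff. SpG cells carried a barcode that recurs in another library. The part of either in these values was not tested. Mice aged 8 weeks gave 7.97% of undiff. SpG, 84.5% of diff. SpG and 0.341% of pL. Stage and age therefore cannot be told apart in these steps.

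In eL/L/Z against pL the median was -0.17, with an interval over genes of -0.27 to -0.09, beside 0.07 over all genes. No member was 2-fold lower in this step (all genes 0.59%) and 1, Psma8, was 2-fold higher (all genes 4.41%). One step on, in L/Z/eP, the median was -0.18 beside -0.09, with 3 members at least 2-fold lower, Psmd5, Psma7 and Psme1 (all genes 3.97%), and none 2-fold higher (all genes 5.45%). On entering mP/lP, 30 of 46 members rose above their L/Z/eP level, with a median of 0.25 beside -0.10 over all genes. Psma8 alone was 2-fold higher (all genes 1.38%) and none was 2-fold lower (all genes 3.54%). Between mP/lP and D, 38 of 46 members were lower (median -0.34, all genes 0.08), and between D and RS 39 of 46 were lower (median -0.36, all genes -0.17). Neither of these last steps had a member 2-fold apart, where 4.92% and 10.6% of all genes were higher and 0.184% and 3.34% lower by that much. In ES, 43 of 46 members stood above RS, with a median of 0.49 beside 0.13. Psma7, Psmf1, Psmb7, Psmb4, Psmd7, Psmd14 and Psma6 were at least 2-fold higher there (all genes 10.1%) and none was 2-fold lower (all genes 10%). Centred on the median of all genes, 4 were 2-fold higher. With a pseudocount of 1, Psmf1 alone stayed 2-fold higher in ES, and no call of the steps from pL to mP/lP stayed. The Sertoli markers Clu, Sox9 and Wt1 moved the same way, from 2.9, 0.299 and 0.424 in RS to 31.3, 1.9 and 2.45 in ES. Amh did not, at 0.00641 in RS and 0.00436 in ES. Of ES cells, 59.7% carried a recurring barcode, against 8.52% of RS cells. The part of other cells' RNA and of these barcodes in the rise was not tested.

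**Figure D2:**
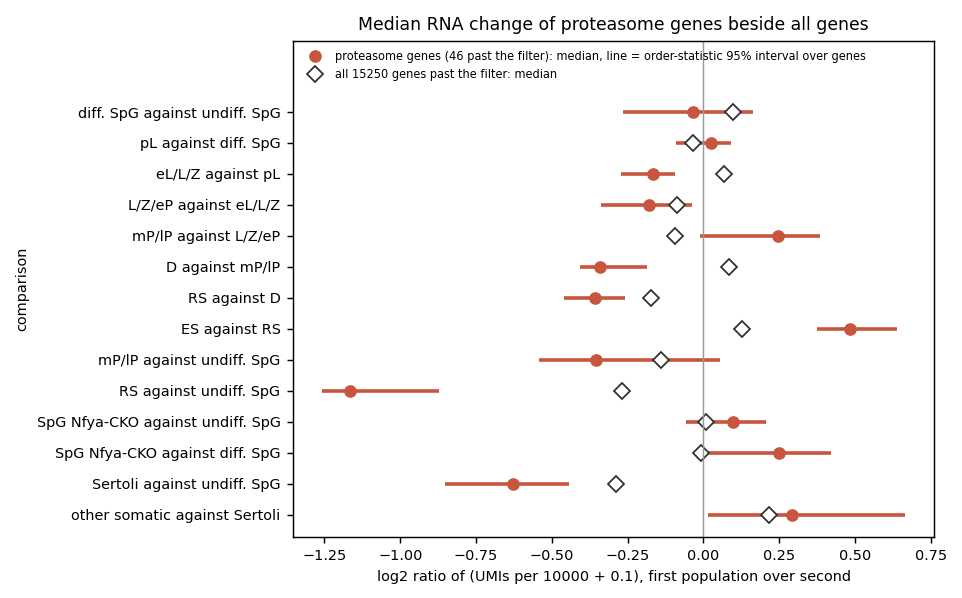
Points give the median log2 ratio of (UMIs per 10000 + 0.1) over 46 proteasome genes in each of 14 comparisons, lines its order-statistic 95% interval over genes, and diamonds the median over 15250 genes. RS against undiff. SpG is furthest from 0, at -1.17, and the members lie below all genes in the steps out of mP/lP and above them in ES against RS.

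By mP/lP, 8 of 46 members were at least 2-fold lower than in undiff. SpG (all genes 20.8%), among them Psme1, Psmb10, Psma7 and Psmd5, and 2, Psma8 and Psmd8, were at least 2-fold higher (all genes 13.9%). The median log2 ratio was -0.35 beside -0.14. With a pseudocount of 1, only Psme3 stayed 2-fold lower and Psma8 2-fold higher. Over the whole course, 29 of 46 members were at least 2-fold lower in RS than in undiff. SpG (all genes 26.7%) and 3 were at least 2-fold higher (all genes 22.4%). The median log2 ratio was -1.17, with an interval of -1.26 to -0.87, beside -0.27 over all genes. When the ratios were centred on the median of all genes, 15 were lower and 5 higher by 2-fold. Under a pseudocount of 1, 4 were 2-fold lower (Psmd5, Psme3, Psmd7 and Psmb2) and 1, Psmc2, was 2-fold higher. Psmb10, Psmd5, Psme1, Psma7 and Psme2 were furthest down, at log2 ratios of -2.55 to -2.34. The 3 that were higher were Psmc2 (1.86), Psmf1 (1.56) and Psma6 (1.45). All comparisons against undiff. SpG share that population, so that they are not independent of each other.

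Psma8, the alpha subunit restricted to germ cells, ran against its counterpart Psma7 up to D, and both then fell into RS and rose into ES. Psma8 RNA was 0.686 UMIs per 10000 in undiff. SpG, 1.28 in diff. SpG, 0.289 in pL, 0.991 in eL/L/Z, 1.98 in L/Z/eP, 4.08 in mP/lP, 2.34 in D, 1.32 in RS and 2.23 in ES. It was lowest in Sertoli cells (0.0733), at 0.537 in SpG Nfya-CKO, 0.971 in other somatic cells and 0.940 in the unknown cells. Its peak in mP/lP was 14.1-fold above the low in pL. Psma7 RNA was 0.890, 0.733, 0.831, 0.648, 0.232, 0.134, 0.156, 0.0953 and 0.483 in the same germ cell order, with 0.946 in SpG Nfya-CKO, 1.24 in Sertoli, 0.777 in other somatic and 0.596 in unknown cells, so that it was highest in Sertoli cells. From pL to mP/lP the log2 change of Psma8 exceeded that of Psma7 by 5.42. Psma8 in diff. SpG and other somatic cells moved with the spermatid marker Prm1, which was 3.94 and 1.54 there against 0.00198 in Sertoli cells, and the part of other cells' RNA in these levels was not tested.

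Genes with RNA most like that of Psma8 were ranked over all populations. Over the 13 populations and among 15249 genes, those with the highest Pearson r included Tcam1 (0.977), 1700029P11Rik (0.974), Dnah8 (0.972) and Dnah14 (0.970). Like Psma8, Tcam1 was low in pL (0.279), peaked in mP/lP (4.47) and stood at 1.2 in RS. These points share libraries and depth, and r is given as a description.

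**Figure D3:**
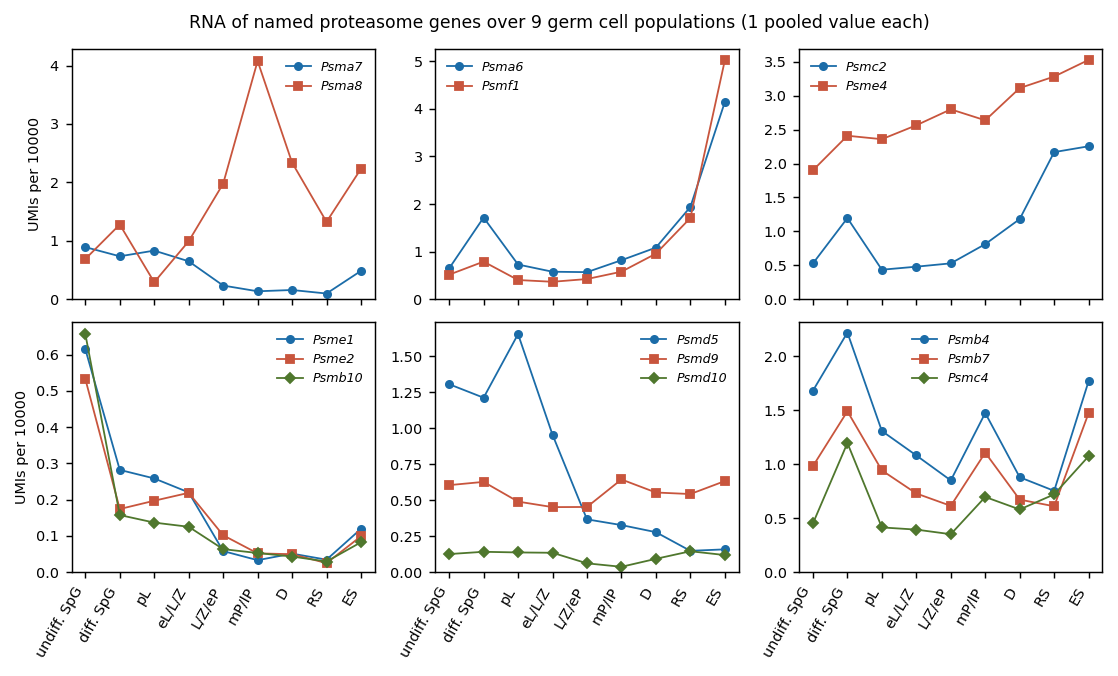
Each panel plots RNA in UMIs per 10000 against the 9 germ cell populations, 1 pooled value per point. Psma8 climbs to 4.08 in mP/lP while Psma7 drops to 0.134, Psma6 and Psmf1 end at 4.14 and 5.02 in ES, Psme1, Psme2 and Psmb10 are highest in undiff. SpG, and Psmb4, Psmb7 and Psmc4 have a peak in diff. SpG.

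Within the alpha ring, Psma6 had the widest course over the germ cell populations on the log2(value + 0.1) scale and Psma5 the narrowest. Psma6 RNA was 0.645 in undiff. SpG, 1.71 in diff. SpG, 0.727 in pL, 0.575 in eL/L/Z, 0.567 in L/Z/eP, 0.818 in mP/lP, 1.08 in D, 1.94 in RS and 4.14 in ES. It was the only alpha subunit of the constitutive ring without its low in RS, and ended 7.31-fold above its own low. Psma5, from 0.681 in undiff. SpG to 0.262 in RS, was 0.681, 0.501, 0.589, 0.546, 0.377, 0.522, 0.361, 0.262 and 0.494 in germ cell order. Psma3 had its peak late, at 1.3 in mP/lP, before it fell to 0.419 in RS. Psma1, Psma2 and Psma4 spanned 2.58- to 4.47-fold, each with its low in RS.

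All 7 beta subunits had their low in RS. Psmb2 had the widest course on the log2(value + 0.1) scale, from 2.98 in pL to 0.679 in RS, and Psmb6, which carries the caspase-like site, the narrowest, from 0.671 in undiff. SpG to 0.278 in RS. Psmb2 in germ cell order was 2.8, 2.6, 2.98, 1.91, 1.21, 1.3, 1.07, 0.679 and 1.04. Psmb6 was 0.671, 0.495, 0.356, 0.368, 0.356, 0.557, 0.407, 0.278 and 0.473. Psmb3 spanned more as a plain ratio, 5.28-fold from 0.609 in pL to 0.115 in RS. Psmb5, which carries the chymotrypsin-like site, was 0.462 in undiff. SpG, 0.183 in diff. SpG, 0.379 in pL and 0.116 in RS. Psmb7, which carries the trypsin-like site, was 0.981 in undiff. SpG, 1.49 in diff. SpG, 0.942 in pL, 0.61 in RS and 1.47 in ES. On the scale of value + 0.1, neither was 2-fold apart between undiff. and diff. SpG, at log2 ratios of -0.99 for Psmb5 and 0.56 for Psmb7. The plain ratio of Psmb5, without the 0.1, was 0.396. Psmb1 fell from 2.83 in undiff. SpG to 1.13 in RS, and Psmb4 stood at 1.68 and 0.752.

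The ATPases, which unfold the substrate at the base of the 19S particle, split evenly, with 3 of 6 at their low in RS. Psmc2 RNA was 0.527 in undiff. SpG, 1.2 in diff. SpG, 0.433 in pL, 0.478 in eL/L/Z, 0.527 in L/Z/eP, 0.811 in mP/lP, 1.18 in D, 2.17 in RS and 2.26 in ES. Psmc3 was the steadiest, between 1.05 in undiff. SpG and 1.81 in mP/lP, at 1.05, 1.57, 1.17, 1.08, 1.2, 1.81, 1.44, 1.16 and 1.49 in germ cell order. Psmc4 went from 0.351 in L/Z/eP to 0.72 in RS and 1.07 in ES. Psmc1, Psmc5 and Psmc6 had their low in RS, at 0.404, 0.405 and 0.342. The ATPases form a ring with 1 copy of each, and in RS the RNA of Psmc2 was high while that of these 3 was at its low. As a sum, ATPase RNA ran from 4.17 in L/Z/eP to 7 in diff. SpG, while that of the non-ATPase subunits went from 16.8 in undiff. SpG to 7.02 in RS.

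Among the non-ATPase subunits, Psmd7, a lid subunit that pairs with the deubiquitinase Psmd14, had the widest course. It was 3.13 in undiff. SpG, 1.09 in diff. SpG, 1.13 in pL, 1.62 in eL/L/Z, 1.65 in L/Z/eP, 1.63 in mP/lP, 1.56 in D, 0.764 in RS and 1.77 in ES, and highest in Sertoli cells, at 3.52. Psmd14 itself fell from 1.51 in pL to 0.381 in RS. Psmd6 was the steadiest, between 0.256 in RS and 0.511 in mP/lP, at 0.293, 0.421, 0.426, 0.387, 0.416, 0.511, 0.371, 0.256 and 0.37 in germ cell order. Psmd8, another lid subunit, had its low in undiff. SpG (0.676) and its peak in mP/lP (1.63), 2.41-fold higher. Psmd4, the ubiquitin receptor of the base, was 1.84 in undiff. SpG, 0.743 in RS and 1.59 in ES. Psmd11, a lid subunit, went from 3.11 in pL to 0.82 in RS. Psmd1, Psmd2, Psmd3, Psmd12 and Psmd13 spanned 2.35- to 3.15-fold, each with its low in RS save Psmd1, which was 0.936 there and 0.91 in ES.

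Over the 9 germ cell populations, 23 of the 31 constitutive subunits had a Pearson r above 0.5 with the summed RNA of the other constitutive subunits, with a median r of 0.75. Below 0 were Psma6 (-0.29), Psmc2 (-0.51) and Psmd8 (-0.16). Outside the constitutive set, Psme4 (-0.69), Psma8 (-0.38) and Psmf1 (-0.26) were also below 0. The populations share libraries and differ in depth, and these r are descriptions of 9 points.

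The immunoproteasome subunits replace the peptidase subunits of the beta ring in immune cells. Psmb10 RNA was 0.657 in undiff. SpG, 0.158 in diff. SpG, 0.137 in pL, 0.125 in eL/L/Z, 0.0635 in L/Z/eP, 0.0528 in mP/lP, 0.0432 in D, 0.0294 in RS and 0.0825 in ES. SpG Nfya-CKO held 0.592, other somatic cells 0.312, Sertoli cells 0.125 and unknown cells 0.36. Psmb10 was thus highest in undiff. SpG, 22.4-fold above RS. The leukocyte markers summed to 0.0736 in undiff. SpG, with Ptprc at 0.0133, against 0.397 in RS, 0.904 in SpG Nfya-CKO and 2.08 in other somatic cells. Psmb8 RNA in germ cell order was 0.0067, 0.00771, 0.00169, 0.00265, 0.0015, 0.00136, 0.00187, 0.00387 and 0.0127, with 0.032 in SpG Nfya-CKO, 0.00102 in Sertoli, 0.0854 in other somatic and 0.382 in unknown cells. It rested on a few UMIs in most germ cell populations and was highest in the 99 unknown cells, where 3 UMIs would already give 0.064. Psmb9 was 0.0413, 0.0168, 0.0082, 0.00662, 0.00753, 0.00462, 0.00277, 0.00825 and 0.0185, with 0.102 in SpG Nfya-CKO, 0.00505 in Sertoli, 0.0573 in other somatic and 0.193 in unknown cells, so that undiff. SpG held the most among the 9 germ cell populations. Psmb11, the thymoproteasome subunit, was 0.0414, 0.0404, 0.0235, 0.0203, 0.0174, 0.0172, 0.0239, 0.0122 and 0.00577, with 0.0501 in SpG Nfya-CKO, 0.00417 in Sertoli, 0.00629 in other somatic and 0 in unknown cells. Psmb9 overlaps Tap1 and Psmb10 overlaps Gm16156 on the other strand. In all 15 members overlap another measured gene, Psmb7 (Nek6), Psmc3 (Slc39a13), Psmd5 (Cutal) and Psme1 (Emc9) among them, and whether the counting used strand is not stated.

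The activator caps parted as well. Psme1 and Psme2, which together form the cap induced by interferon, fell early: Psme1 was 0.615 in undiff. SpG, 0.282 in diff. SpG, 0.259 in pL, 0.22 in eL/L/Z, 0.0582 in L/Z/eP, 0.0331 in mP/lP, 0.0512 in D, 0.0345 in RS and 0.12 in ES, with 0.555 in SpG Nfya-CKO, 0.235 in Sertoli, 0.522 in other somatic and 0.872 in unknown cells. Psme2 in the same order was 0.533, 0.174, 0.197, 0.219, 0.102, 0.0519, 0.0496, 0.025 and 0.0991, with 0.351 in SpG Nfya-CKO, 0.3 in Sertoli, 0.175 in other somatic and 0.237 in unknown cells. These courses spanned 18.6- and 21.3-fold. Psme2b is a copy of Psme2, and the authors' alignment kept only reads with a single match. It also overlaps 9930111J21Rik1 and Gm12185 on the same strand, so that its level is uncertain. Psme2b was 0.171, 0.0319, 0.0853, 0.0636, 0.0435, 0.0204, 0.0235, 0.00783 and 0.0397, with 0.175 in SpG Nfya-CKO, 0.115 in Sertoli, 0.125 in other somatic and 0.269 in unknown cells. Psme3, the cap found in the nucleus, was 4.61, 3.46, 3.79, 2.38, 1.19, 1.61, 1.18, 1.1 and 1.96, with 3.43 in SpG Nfya-CKO, 1.78 in Sertoli, 2 in other somatic and 1.54 in unknown cells. It had fallen by L/Z/eP, and ES regained part of it. Psme4, the cap of the spermatoproteasome, rose from 1.9 in undiff. SpG through 2.41, 2.36, 2.57, 2.8, 2.64, 3.11 and 3.29 to 3.53 in ES, with 1.98 in SpG Nfya-CKO, 1.63 in Sertoli, 1.53 in other somatic and 2.54 in unknown cells. Among the 9 germ cell populations, it was the only cap with its low in undiff. SpG.

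Psmf1, known as an inhibitor of the core in vitro, had one of the widest courses of all members. It was 0.513 in undiff. SpG, 0.788 in diff. SpG, 0.401 in pL, 0.364 in eL/L/Z, 0.422 in L/Z/eP, 0.576 in mP/lP, 0.955 in D, 1.71 in RS and 5.02 in ES. This is 13.8-fold from the low to ES, and more than 10-fold was spanned by 7 of the 46 members past the filter and by 29.1% of all genes past it, where genes at 0 in a germ cell population were not counted as such. Psmf1 was 0.457 in SpG Nfya-CKO, 0.286 in Sertoli and 0.568 in other somatic cells.

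The assembly chaperones did not move as a set. Psmd5, a chaperone of the 19S base, was 1.31 in undiff. SpG, 1.21 in diff. SpG, 1.66 in pL, 0.956 in eL/L/Z, 0.367 in L/Z/eP, 0.327 in mP/lP, 0.278 in D, 0.148 in RS and 0.159 in ES. It fell 11.2-fold from pL to RS, and 1.3 in SpG Nfya-CKO, 0.521 in Sertoli, 0.384 in other somatic and 0.146 in unknown cells were the other levels. Psmd9, of the same function, had the flattest course, 0.605, 0.628, 0.491, 0.452, 0.453, 0.645, 0.554, 0.543 and 0.633, with 1.01 in SpG Nfya-CKO, 0.391 in Sertoli, 0.736 in other somatic and 0.578 in unknown cells. Psmd10, also called gankyrin and the only X-linked member, was 0.126, 0.142, 0.137, 0.135, 0.0614, 0.0373, 0.0927, 0.145 and 0.119, with 0.152 in SpG Nfya-CKO, 0.129 in Sertoli, 0.187 in other somatic and 0.0275 in unknown cells. Its low among germ cells was in mP/lP, a stage in which genes of the X chromosome are known to be silenced. The autosomal Psmb8 and Psme1 also had their germ cell low there. Psmd10 scATAC signal was 17.2 in mP/lP and 17.9 in undiff. SpG, or 43.4 and 30.1 when scaled without mitochondrial genes. The part of silencing was not tested. Psmg1, which pairs with Psmg2 to build the alpha ring, was 0.467, 0.507, 0.524, 0.428, 0.379, 0.472, 0.299, 0.193 and 0.244, with 0.493 in SpG Nfya-CKO, 0.205 in Sertoli, 0.265 in other somatic and 0.163 in unknown cells. Psmg2 was 1.1, 0.876, 0.827, 0.892, 0.85, 1.14, 0.718, 0.968 and 0.697, with 1.22 in SpG Nfya-CKO, 0.492 in Sertoli, 0.642 in other somatic and 0.389 in unknown cells. The pair differed in RS, where Psmg1 had its low and Psmg2 was above its level in D. Psmg3 was 0.286, 0.132, 0.19, 0.202, 0.256, 0.214, 0.143, 0.0702 and 0.0976, with 0.286 in SpG Nfya-CKO, 0.126 in Sertoli, 0.127 in other somatic and 0.037 in unknown cells. Psmg4 was 0.418, 0.353, 0.337, 0.3, 0.265, 0.246, 0.214, 0.146 and 0.258, with 0.596 in SpG Nfya-CKO, 0.255 in Sertoli, 0.259 in other somatic and 0.255 in unknown cells. Both of these, which form the other chaperone pair of the core, had their germ cell low in RS.

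Genes of the ubiquitin and proteasome pathway that are no members were followed from a list of 22 measured genes. In RS against undiff. SpG, 11 of them were at least 2-fold lower and 2 at least 2-fold higher, with a median log2 ratio of -0.98 (all genes 26.7% lower, 22.4% higher and a median of -0.27). The lower ones included Nfe2l1, a transcription factor of proteasome genes (1.58 to 0.246), its protease Ddi2 (1.69 to 0.269), the core maturation factor Pomp (1.76 to 0.423) and the ubiquitin-activating enzyme Uba1 (2.07 to 0.984). The higher ones were Ngly1, the glycanase that acts on the NFE2L1 protein (0.212 to 1.06), and the shuttle factor Ubqln4 (0.190 to 1.17). Nfe2l1 RNA was at its lowest in RS, where most members were at theirs, and higher in ES (0.628). It went from 0.523 in L/Z/eP to 0.309 in mP/lP, where 30 of 46 members were higher. In SpG Nfya-CKO, where the sum of the members was highest, it was 0.753. A link between Nfe2l1 RNA and the members was not tested.

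Spermatogonia of the library labelled Nfya-CKO held more proteasome RNA than any other population. Summed over the constitutive subunits they had 45.6 UMIs per 10000, against 37.9 in undiff. SpG and 39.3 in diff. SpG. For 17 of 49 members this population was the highest of the 13, against 11.6% of all genes. Per gene the shift was small: against undiff. SpG the median log2 ratio was 0.10 (interval -0.06 to 0.21) beside 0.01 over all genes, with 29 of 46 members above 0. Against diff. SpG it was 0.25 (0.01 to 0.42) beside -0.01, with 31 of 46 above 0. All 7 beta subunits were above 0 in the latter comparison, at 0.25 to 0.68.

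Against undiff. SpG, 4 members were at least 2-fold higher (all genes 4.09%) and none was 2-fold lower (all genes 3.08%). With a pseudocount of 1, Psma6 alone stayed 2-fold higher, with Psmc4 at 0.86, Psmb4 at 0.78 and Psmb7 at 0.72. Psma6 was 2.39 against 0.645, a log2 ratio of 1.74. Psmc4 was 1.63 against 0.451, a log2 ratio of 1.65. Psmb7, at 2.26 against 0.981, and Psmb4, at 3.61 against 1.68, had log2 ratios of 1.13 and 1.06, and Psmc2 followed with 1.10 against 0.527 (0.94). The lowest ratios were those of Psma3 (0.62 against 1.08, -0.71), Psma4 (0.859 against 1.4, -0.65), Psmb5 (0.281 against 0.462, -0.56), Psme2 (0.351 against 0.533, -0.49) and Psme3 (3.43 against 4.61, -0.42).

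These 4 genes were also above their undiff. SpG levels in diff. SpG and in other somatic cells, both mostly from 8-week-old mice. In diff. SpG, Psma6 was 1.71, Psmc4 1.2, Psmb7 1.49 and Psmb4 2.22. In other somatic cells they stood at 2.67, 1.5, 1.96 and 2.8, against 0.529, 0.265, 0.676 and 0.859 in Sertoli cells, which came almost wholly from juvenile mice. Of the other somatic cells, however, 78.8% came from the library labelled Nfya-CKO itself and 70.1% carried a recurring barcode. RS, of which 77.0% were from 8-week-old mice, held Psma6 at 1.94 and Psmc4 at 0.72, but Psmb7 at 0.61 and Psmb4 at 0.752, below undiff. SpG. In ES, of which 99.6% were, all 4 were above undiff. SpG, in the same order at 4.14, 1.07, 1.47 and 1.77. All 4 were among the 7 members at least 2-fold higher in other somatic than in Sertoli cells (all genes 15.4%, and 5.98% lower, with no member), the other three being Psma8, Psmc2 and Psmc3, and with a pseudocount of 1 Psma6 and Psmb4 stayed. With diff. SpG as the control none of the 4 stayed 2-fold apart, at log2 ratios of 0.42 to 0.68, nor did they with the mean of both SpG populations. The members 2-fold apart from diff. SpG were Psmb10 (0.592 against 0.158), Psmd7 (2.58 against 1.09) and Psme2b above (all genes 6.86%), and Psma8 below, at 0.537 against 1.28 (all genes 10.5%), and none of these stayed so with a pseudocount of 1. Psmb10 and Psmd7 were near their undiff. SpG levels of 0.657 and 3.13. Genotype and age cannot be told apart in the comparison with undiff. SpG.

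Other values moved with this population. Its cells were the deepest, with a median of 18361 UMIs against 9290 in undiff. SpG and 6188 in diff. SpG. Of its 491 cells, 175 (35.6%) had a barcode that is also in the Cre/+ library, 143 of them under a cell named diff. SpG. The Leydig markers summed to 8.66 here, against 0.108 in undiff. SpG, 0.348 in diff. SpG and 36.8 in other somatic cells. The Sertoli markers summed to 24.3, against 3.67, 4.38 and 98.3 in the same order, and 55.8 in Sertoli cells. Clu made up 22.8 of the 24.3. Of the other Sertoli markers, Sox9 was 0.82 against 0.531 in undiff. SpG and Wt1 0.7 against 0.6. Amh was lower, at 0.0116 against 0.0431. The part of depth, barcodes and these markers in the proteasome values was not tested.

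In chromatin, the members' median in SpG Nfya-CKO against undiff. SpG lay below that of all genes, with and without mitochondrial genes. Its distance from 0 depended on this scaling, which moves all genes nearly alike. scATAC signal was scaled to a sum of 1000000 per population, and a ratio was taken of value + 1. Over 48 members past the filter, all but Psme2b, the median log2 ratio was -0.16 (interval -0.30 to -0.08) beside -0.05 over all genes, and 36 were below 0. At least 1.5-fold lower were 4, Psmf1, Psmb3, Psmc3 and Psma6 (all genes 6.12%), and none was 1.5-fold higher (all genes 8.95%). Psmb3 signal was 33.0 against 56.3, Psmc3 17.6 against 28.9, Psma6 2.94 against 4.92 and Psmf1 0.263 against 1.38. The fifth lowest was Psma7, at 44.0 against 65.5. The highest ratios were those of Psmb11 (3.86 against 2.5), Psma8 (15.6 against 12.1), Psmd9 (9.12 against 7.1), Psmd14 (31.5 against 26.3) and Psmd6 (21.8 against 18.4). The call of Psma6, highest in RNA ratio, was lost when centred on the median of all genes (-0.54), without mitochondrial genes (-0.53) and with a pseudocount of 5 (-0.32). That of Psmf1 was lost with a pseudocount of 5 (-0.28) and that of Psmc3 without mitochondrial genes (-0.57), while Psmb3 kept its call under these alternatives. When the signal was scaled without mitochondrial genes, which took 46% of it against 40.6%, the median over the members was -0.03 beside 0.09 over all genes, with 2 members lower and 1 higher.

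**Figure D4:**
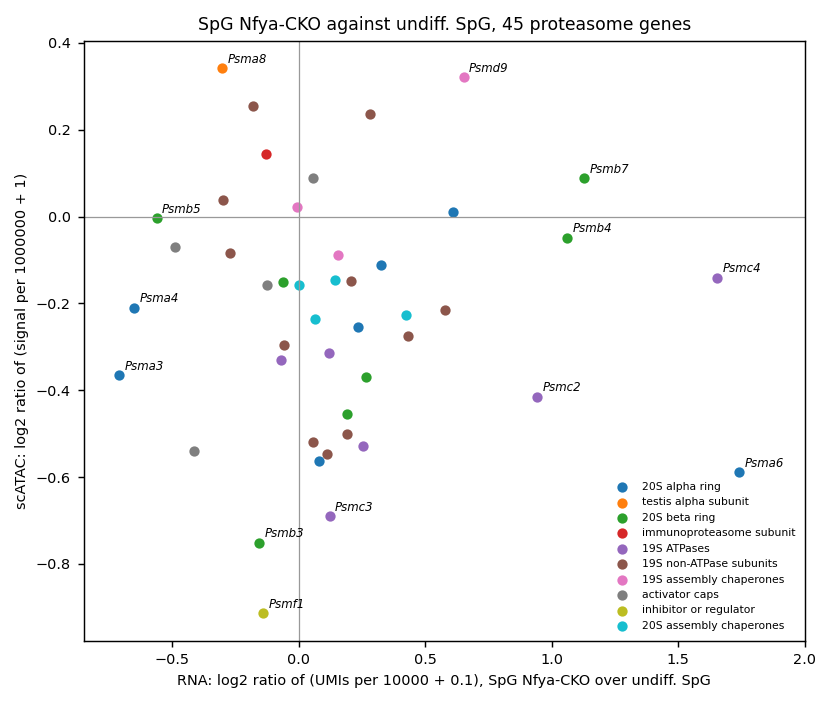
Each point is 1 of the 45 members that passed both filters, with the log2 ratio of SpG Nfya-CKO over undiff. SpG in RNA (x axis) and in scATAC signal (y axis), coloured by role. Psma6, Psmc4, Psmb7 and Psmb4 lie beyond 1 on the RNA axis, and none of them is above 0.09 on the scATAC axis.

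Members with and without a CCAAT match were set side by side in this comparison. In scATAC, 14 members with a match had a median log2 ratio of -0.26, with 11 below 0, and 26 without had -0.16, with 19 below 0. In RNA, 12 with a match had a median of 0.18 and 26 without had 0.04, over ranges of -0.71 to 1.74 and -0.65 to 1.65. In scATAC the ranges were -0.75 to 0.48 with a match and -0.91 to 0.32 without. Ranges of single genes can overlap whatever the medians do, and the difference in medians was not tested.

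Across the germ cell populations the scATAC signal of the members moved with the mitochondrial share of the library. Summed over the 49 members, it was 1463 per 1000000 in undiff. SpG, 1781 in pL, 900.0 in L/Z/eP, 972 in mP/lP and 1539 in RS, while mitochondrial genes took 40.6%, 31.2%, 63.8%, 60.3% and 40.2% of the signal. Without the 13 mitochondrial genes, the same sum lay between 2329.7 and 2686 in all 13 populations. The 1.98-fold course of the signal was lost under this scaling. In RNA, mitochondrial genes took 0.392% to 1.37%. In mP/lP against undiff. SpG, 17 of 48 members were at least 1.5-fold lower (all genes 40.2%) and 2 higher (all genes 6.25%), with a median of -0.48 beside -0.41. The 2 that were higher, Psmf1 and Psma6, were no longer so with a pseudocount of 5. Scaled without mitochondrial genes, 7 were lower and 5 higher, with a median of 0.08, and the median of all genes shifted by 0.54.

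A few members kept a course of their own in chromatin under both scalings. Psma6 signal was 4.92 in undiff. SpG and 12.2 in pL, and rose from 7.32 in L/Z/eP to 8.78 in mP/lP, 15.4 in D and 35.0 in RS, and fell to 18.0 in ES. Psmf1 signal was 1.38 in undiff. SpG and rose from 1.77 in L/Z/eP to 3.27, 6.34 and 13.3, and fell to 3.95 in ES. Both were the 2 members furthest up in RS against undiff. SpG, at log2 ratios of 2.60 and 2.59, where 7 of 48 were at least 1.5-fold higher (all genes 29.0%) and 8 lower (all genes 21.5%). Centred on the median of all genes, 4 were higher and 10 lower. Their RNA went on rising into ES, where the signal fell.

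Lower in RS were Psmb9 (6.68 against 35.2), Psmb8 (7.93 against 23.9), Psmd5 (3.96 against 12.5), Psmb10 (11.9 against 30.4), Psma7 (27.0 against 65.5), Psme1 (13.9 against 27.7), Psmd4 and Psme2. Of these 8, all but Psmb8 and Psmb9, whose RNA was too low for the filter, were also at least 2-fold lower in RNA. So were 29 of all 46 members past the RNA filter (63.0%), so that the overlap says little of a link between signal and RNA. Psmb9, Psmb8, Psmd5, Psmd9, Psmb10 and Psma7 were already 1.5-fold lower in eL/L/Z (all genes 24.4%), where only Psma6 was higher by that much (all genes 1.36%). The calls of Psma7 and Psmb10 in eL/L/Z were lost without mitochondrial genes (-0.56 and -0.58) and when centred on the median of all genes (both -0.50), and those of Psmd9 (-0.50) and Psma6 (0.49) with a pseudocount of 5. The signal had its highest germ cell level in undiff. SpG for 7 of 49 members, against 18.6% of all genes. Under both scalings this held for Psmb8, Psmb9, Psmb10 and Psme1, members known to be induced by interferon, and also for the chaperones Psmd5 and Psmd9. Psme2, also induced by interferon, did not, with 72.6 in pL against 62.7 in undiff. SpG, and without mitochondrial genes 108 in diff. SpG against 106.

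**Figure D5:**
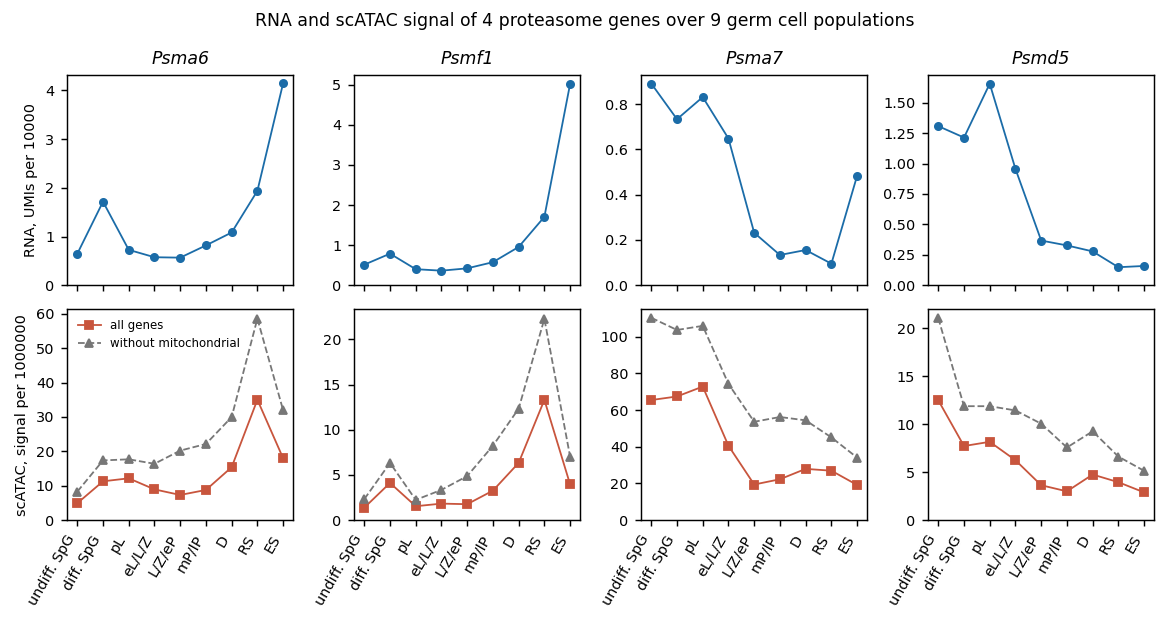
The upper row plots RNA in UMIs per 10000 and the lower row scATAC signal per 1000000, scaled over all genes (squares) and without mitochondrial genes (triangles), against the 9 germ cell populations. Psma6 and Psmf1 rise in both rows from L/Z/eP to RS, and Psma7 and Psmd5 are lower in both rows in every later population than in pL, although Psma7 RNA was back at 0.483 in ES.

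Over the 9 germ cell populations, Pearson r between RNA and scATAC signal of a member was above 0.5 for 11 of 49 and below 0 for 15, with a median of 0.16. The highest were Psme1 (0.89), Psmb10 (0.88), Psmd5 (0.88), Psmb3 (0.77), Psma7 (0.76) and Psme2 (0.74), followed by Psma6 (0.70). Psmc2, whose RNA rose 5.2-fold from pL to ES, was at 0.16, with signal of 61.9 in pL and 56.5 in RS. Psma8 was at 0.01: its signal was 12.1 in undiff. SpG, 9.77 in pL, 13.4 in mP/lP, 20.5 in D, 19.6 in RS and 3.4 in ES. With the signal scaled without mitochondrial genes, an alternative chosen after seeing the data, r was 0.11 for Psmc2 and 0.28 for Psma8, whose signal was then 14.2 in pL, 33.7 in mP/lP and 39.9 in D. The median over the 49 was then 0.25, with 11 above 0.5 and 19 below 0, and Psmd10 went from 0.70 to -0.60. The point for ES rests on 124 scATAC cells. The points share libraries and the mitochondrial share. For the authors' pooled tracks, promoter accessibility was defined as mean coverage around the start site, and whether the gene matrix was counted over that region is not given in the sources used here.

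Proteasome RNA was lower in Sertoli cells than in undiff. SpG. Sertoli cells were below undiff. SpG in 39 of 46 members, with a median log2 ratio of -0.63 beside -0.29 over all genes. At least 2-fold lower were 11 (all genes 16.9%) and none was 2-fold higher (all genes 10.1%). Centred on the median of all genes, 3 were 2-fold lower, and with a pseudocount of 1 only Psme3. Psma8 was furthest down (-2.18), then Psmb10 (-1.75) and Psme3 (-1.32), while Psma7 was furthest up (0.44), followed by Psmd7 (0.16). In scATAC, Psma8 was also furthest down in Sertoli cells, at 2.82 against 12.1, one of 4 members 1.5-fold lower (all genes 32.3%), with Psmd5, Psmb8 and Psmd9, while none was higher (all genes 5.62%). The calls of Psmb8 (-0.56) and Psmd9 (-0.47) were lost when centred on the median of all genes, and that of Psmd9 also with a pseudocount of 5 (-0.47). In RNA, other somatic cells were above Sertoli cells in 32 of 46 members, with a median of 0.29 beside 0.22 over all genes. The Sertoli markers summed to 98.3 in other somatic cells against 55.8 in Sertoli cells. Clu was higher there (91.5 against 34.1), while Sox9 (3.54 against 10.7), Wt1 (3.24 against 10.1) and Amh (0.0321 against 0.927) were lower. Whether the other somatic cells include Sertoli cells was not tested. Sertoli cells came almost wholly from wild-type juveniles and other somatic cells mostly from the library labelled Nfya-CKO, so that cell type, age and genotype cannot be told apart between them. Other somatic cells had 18 of 48 members 1.5-fold below Sertoli cells in signal (all genes 23.4%) and 1, Psma6, above (all genes 6.19%), but 1 lower and 4 higher without mitochondrial genes, which took 64.5% and 51.0% of the signal in these 2 populations.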

How the data were processed

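Testis nuclei of 5 conditions were profiled for RNA and accessible chromatin. Per the labels and the study's methods, the authors aligned RNA reads with STAR 2.7.10b and ATAC reads with BWA 0.7.12 to mm10. They kept cells with at least 500 genes and under 5% mitochondrial counts in Seurat 5.2.1, or with 1000 fragments and a TSS score of 4 in ArchR 1.0.3, and removed doublets with DoubletFinder (RNA) and ArchR (ATAC). The deposited matrices hold, per gene and population, the natural log of 1 plus a mean scaled to 10000. The region counted per gene in the scATAC matrix is not given in the sources used here. The deposited cell tables give UMI and fragment counts per cell as the authors made them, with medians of 3070 and 3968, and 25 of their columns were not used.

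From these, exp(value) - 1 was taken, scATAC was rescaled to 1000000, and log2 ratios used pseudocounts of 0.1 (RNA) and 1 (scATAC) over genes whose mean reached 0.05 and 1. With 1 library per condition no test was run. Members were called apart at 2-fold in RNA and 1.5-fold in scATAC, and medians carry an order-statistic 95% interval over genes, which is no replicate error. The 31 subunits of the constitutive 26S proteasome and the other roles came from gene lists, and the members and lists were chosen with earlier results of these data known. By the rule for named genes, values in every population were given for Psma8, Psma7, the immunoproteasome and thymoproteasome subunits, caps and chaperones, and values in some populations for the widest and narrowest course on the log2(value + 0.1) scale in each constitutive group, and the 5 highest and 5 lowest ratios in SpG Nfya-CKO. For the genes most like Psma8, 1 gene that the rule named is not reported here. Other pseudocounts, filters, scalings and controls were tried as alternatives. Motifs were searched in RefSeq promoter windows on both strands. Python 3.11.15, numpy 2.4.6, pandas 2.3.3, scipy 1.17.1 and matplotlib 3.10.9 were used, and the scripts were tested on simulated data.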

Additional observations from a re-analysis of the deposited data

How the results depend on the processing

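No paired analysis was possible because each condition has a single library and the values are pooled over libraries. Across the alternatives, among medians, shares and the count of lows, 97 values stayed within the interval or the 1.5-fold margin set for them, 21 moved and 3 turned sign from a median whose interval lay off 0. Of counts of members called apart and other values 184 stayed and 52 moved, and no member called apart changed sign. With a pseudocount of 1 in RNA the medians were -0.061 for eL/L/Z against pL, -0.13 for D against mP/lP, -0.12 for RS against D, 0.17 for ES against RS, -0.41 for RS and -0.24 for Sertoli against undiff. SpG, and 12 of 91 member calls kept their fold. With 0.01 they were -0.52 for RS against D, 0.65 for ES against RS and -1.29 for RS against undiff. SpG. Centred on the median of all genes they were -0.42 for D against mP/lP, -0.18 for RS against D, 0.36 for ES against RS and -0.34 for Sertoli against undiff. SpG. With diff. SpG as the control, chosen after seeing the data, SpG Nfya-CKO stood at 0.25. Without mitochondrial genes the scATAC medians were 0.11 for eL/L/Z, 0.081 for mP/lP, -0.027 for SpG Nfya-CKO and 0.077 for Sertoli against undiff. SpG, and -0.11 for other somatic against Sertoli cells. Over all genes they were -0.10, 0.13, 0.089, -0.13 and 0.065 in the same order. The members' medians for mP/lP and Sertoli turned sign, while eL/L/Z crossed 0 from -0.011, with an interval that spans 0. This scaling, like centring, moves all genes nearly alike, so that these turns say nothing of the members alone. Centred, they were 0.17 for eL/L/Z, which again crossed 0, -0.072 for mP/lP, 0.11 for Sertoli, which also turned sign, and -0.23 for other somatic against Sertoli cells, which was -0.46 with a pseudocount of 5. Without Psme2b, also chosen after seeing the data, 25 members were lowest in RS among all 13 populations, against 26. Rescaling RNA without the 50 genes of highest maximum moved no median past its interval. Values resting on few UMIs, such as those of Psmb8, limit what can be said at this depth, and shared barcodes, age and genotype cannot be told apart in the pooled values.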
